A study of Homo sapiens with 40 samples.

Results

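Introns longer than 150 nt and up to 500 nt, called mid-length introns or members below, were followed in human cells whose transcription ran on a wild-type, a slow or a fast RNA polymerase II. They were chosen by length alone, as every intron in that range in either of the 2 deposited tables of retained introns. The response of an intron was no criterion, but the choice was made with earlier results of these data known. That gave 1049 of the 2699 listed introns, or 38.9%. Of these, 1012 were tested for R749H and 1016 for E1126G, and 979 were in both tables. Introns of 41 to 150 nt (919) and introns over 500 nt (684) served as comparison.

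The cells were HEK293 Flp-in T-REx, an embryonic kidney line with a fixed site for an inducible transgene. Each line carried Rpb1, the large subunit of RNA polymerase II, in a form that resists α-amanitin: the wild type (WT), or the same protein with the substitution R749H, known as slow, or E1126G, known as fast. All 3 groups were induced with doxycycline for 12 to 16 h and then kept in α-amanitin, which blocks the cell's own polymerase, for 42 h, so the WT cells also carried the transgene and both drugs. RNA-seq of polyA+ RNA gave 6 libraries, 2 of each genotype, from paired reads of 100 bp. H1106Y, another slow form in the series, was not analysed here. The sources used here do not state whether a line was 1 clone or a pool, and the labels call the libraries biological replicates without naming separate cultures. The tables hold ratios and no expression levels, so neither the transgene nor markers of the cell line were checked.

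Most introns are removed while the polymerase is still transcribing the gene. An intron that stays in the polyadenylated RNA is called retained, and such RNA is often held in the nucleus or degraded. The speed of the polymerase sets how long a splice site is exposed before the next one appears, and it also shapes the folding of the RNA and the recruitment of splicing factors. Short introns tend to be recognised as a unit across the intron, and longer ones across the neighbouring exons. Mid-length introns are near the lengths at which these modes are thought to change over.

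Retention is given here as a percentage, computed from the ratio of retained to spliced RNA in the authors' deposited tables. The tables give 1 pooled value per genotype and intron, so no value has an error of its own and the depth behind it is unknown. An intron was called changed when the deposited p, after Benjamini-Hochberg adjustment across every intron of its table, was under 0.05. Both mutants were set against the same WT libraries, so their values below stand side by side and no difference between the mutants was tested. These are bulk libraries, in which a little more retained RNA in every cell and much more in a few cells cannot be told apart.

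In WT cells the mid-length introns covered the whole scale of retention. Values in the authors' deposited tables ran from 0.108% to 99.7%, with quartiles at 11.7%, 36.4% and 85.2%. Retention was under 10% in 242, from 10% to 90% in 583 and over 90% in 224. The lowest value was that of an unnamed intron at chromosome 19 (49994357 to 49994681), beside an intron of RPL13A, a ribosomal protein gene, at 0.26%. The WT value was identical in both tables for all 979 shared introns, within a tolerance of 1e-09. The lengths of the 1049 had quartiles at 199, 260 and 341 nt, and 360 had a length divisible by 3.

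High values were common where introns overlap. Another listed intron overlapped 304 of the 1049, and their median WT retention was 71.5% against 28.8% for the rest. HAX1, which encodes a mitochondrial regulator of cell survival, shows this in the authors' deposited tables. Its 175-nt intron (chromosome 1, 154246075 to 154246249) had 6.05% retention in WT. A 239-nt form ending at the same place stood at 99.4%, and a shorter form starting at the same place at 82.3%. A high value at such a place goes with little use of that pair of sites, and the sources used here do not state whether the other form was counted as retained. None of the 3 HAX1 values was called in either mutant.

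In R749H cells more mid-length introns gained than lost retention. Of the 1012 tested, 140 had more retention and 55 had less in the authors' deposited table. These are 13.8% and 5.43% of the members, where 11.9% and 6.99% of all 2605 introns tested were called in these directions and 18.9% in either. The median change of the retention ratio was 0.16 on the log2 scale, with quartiles at -0.51 and 0.90, and the median over all introns was 0.04. The ratio was higher than in WT for 577 members and lower for 434.

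Among the called introns the rises were large in absolute terms. The call itself favours large changes, so these sizes do not describe mid-length introns as a whole. Introns called with more retention in R749H had a median of 21.5% in WT and 51.8% in the mutant, a median gain of 21.3 percentage points. Those called with less went from a median of 28.6% to 12.0%, with a median change of -11 points. A gain of at least 10 points was seen in 113 of the 140, and at least 30 points in 38. Of the 55 with less retention, 29 changed by at least 10 points and 4 by at least 30. The retained form became the major one in 49 introns, which moved from under 50% to over it, and 7 moved the other way. Introns with more retention had a median length of 299 nt and those with less a median of 230 nt.

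In E1126G cells fewer introns of this length were called, and the directions were closer to even. The authors' deposited table gave 56 of 1016 with more retention and 38 with less, or 5.51% and 3.74%. Over all 2615 introns tested the shares were 4.51% and 4.67%, and 9.18% in either direction. The median log2 change was 0.08, with quartiles at -0.53 and 0.68, against -0.02 over all introns. Introns called with more retention rose from a median of 13.4% to 36.7%, and those called with less fell from 52.4% to 22.1%. At least 30 points of change were seen in 4 rises and 6 falls. The number of calls depends on the depth and spread of each mutant's libraries, which the tables do not give, so the smaller count is not a measure of a weaker response.

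**Figure D1:**
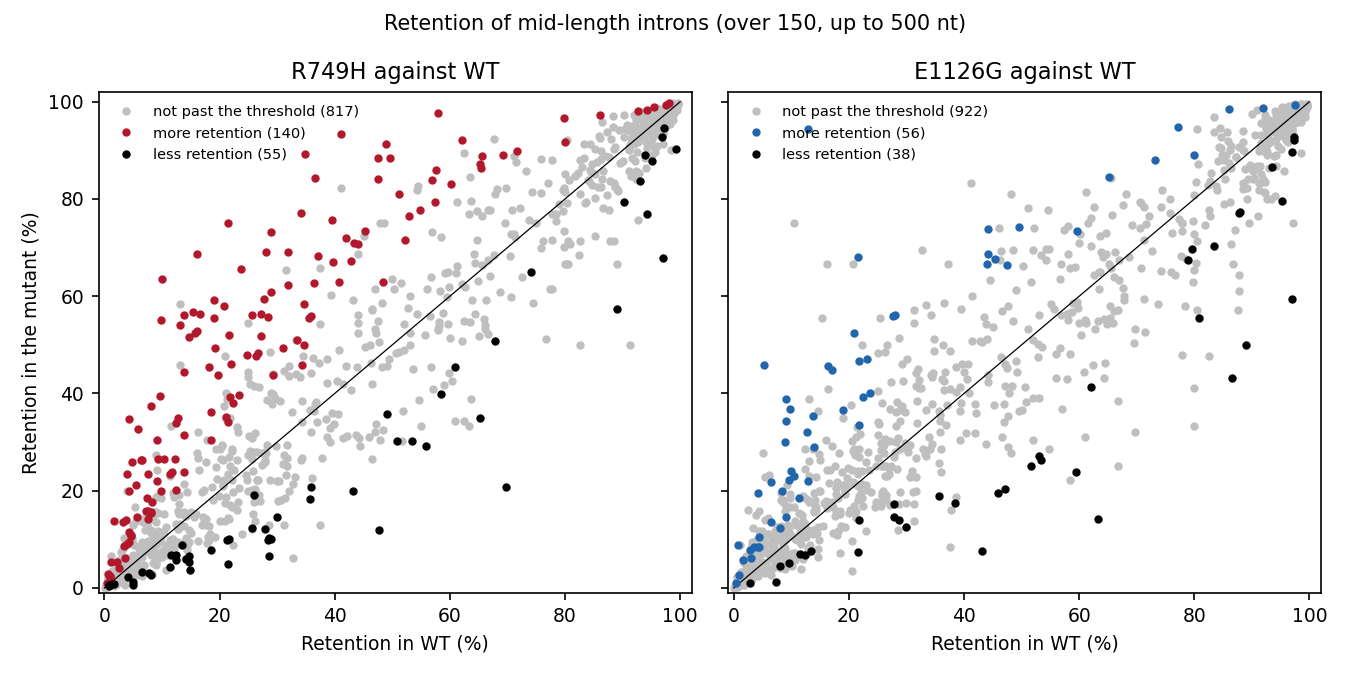
Retention (%) of each mid-length intron in WT (horizontal axis) and in the mutant (vertical axis), R749H left and E1126G right; coloured and black points passed an adjusted p of 0.05, grey points did not, and the line marks equal retention. In R749H 140 points with more retention lie above the line against 55 below it, and in E1126G 56 against 38.

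The response to R749H went with intron length, and mid-length introns lay between the other classes. Among the 882 introns of 41 to 150 nt in the authors' deposited table, 24 had more retention and 90 had less, with a median log2 change of -0.22. The 665 introns over 500 nt showed the opposite balance, 146 with more and 36 with less, and a median of 0.39. The members' 140 against 55 and median of 0.16 fall between these values. For E1126G the medians of short, middle and long introns were -0.17, 0.08 and 0.06, with 17 more and 56 less, 56 more and 38 less, and 45 more and 27 less.

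The turn from mostly less to mostly more retention in R749H fell near the lower end of the mid-length range. In the bins below the lower bound is left out and the upper one kept. From 150 to 200 nt, 27 of 260 introns in the authors' deposited table had more retention and 16 had less. From 200 to 250 nt the numbers were equal, 19 and 19 of 205. From 250 to 300 nt they were 27 and 7 of 171, and from 300 to 400 nt 42 and 6 of 241. The longest members, over 400 nt, had 25 and 7 of 135. Below the range, introns of 100 to 150 nt had 14 with more and 33 with less of 331, and above it, introns of 500 to 1000 nt had 83 and 19 of 360.

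Split at 250 nt, the shorter members had 46 with more and 35 with less retention of 465 in R749H, and the longer members 94 and 20 of 547, in the authors' deposited table. The number with less retention was thus lower among the longer introns although more of them were tested. Within the members the rank correlation of length with log2 change was still weak, a Spearman rho of 0.107 over 1012 introns and a Pearson r of 0.110. Over all introns rho was 0.262. These are descriptions across introns that share libraries and often genes, so no p is given.

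In E1126G the same bins gave no single turning point. Members of 150 to 200 nt had 9 with more and 13 with less of 266 in the authors' deposited table, and those of 200 to 250 nt had 15 and 6 of 206. From 250 to 300 nt the numbers were 5 and 8 of 172, from 300 to 400 nt 13 and 6 of 239, and from 400 to 500 nt 14 and 5 of 133. The medians ran from -0.02 in the shortest bin to 0.20 at 300 to 400 nt, all within the quartiles of every other bin. Spearman's rho with length was 0.0844 over 1016 members and 0.12 over all introns.

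**Figure D2:**
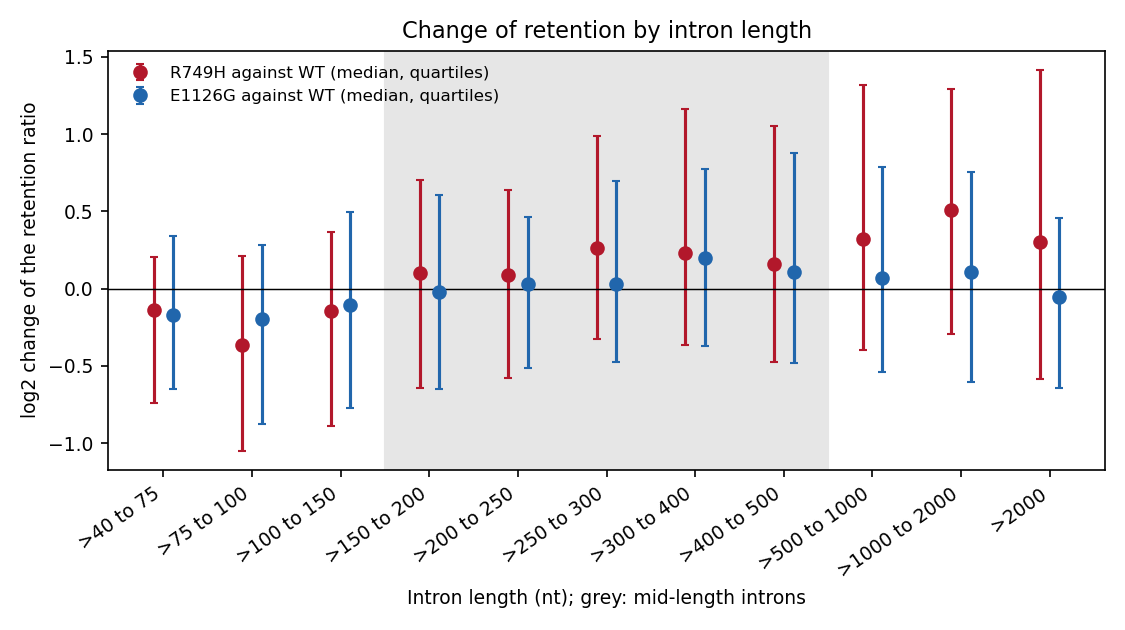
Median log2 change of the retention ratio (points) with quartiles (bars) by intron length in nt, for R749H (red) and E1126G (blue) against WT; the grey band marks the mid-length introns. The R749H medians go from -0.36 at 75 to 100 nt to 0.10 at 150 to 200 nt and 0.51 at 1000 to 2000 nt, and the quartiles overlap throughout.

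**Figure D3:**
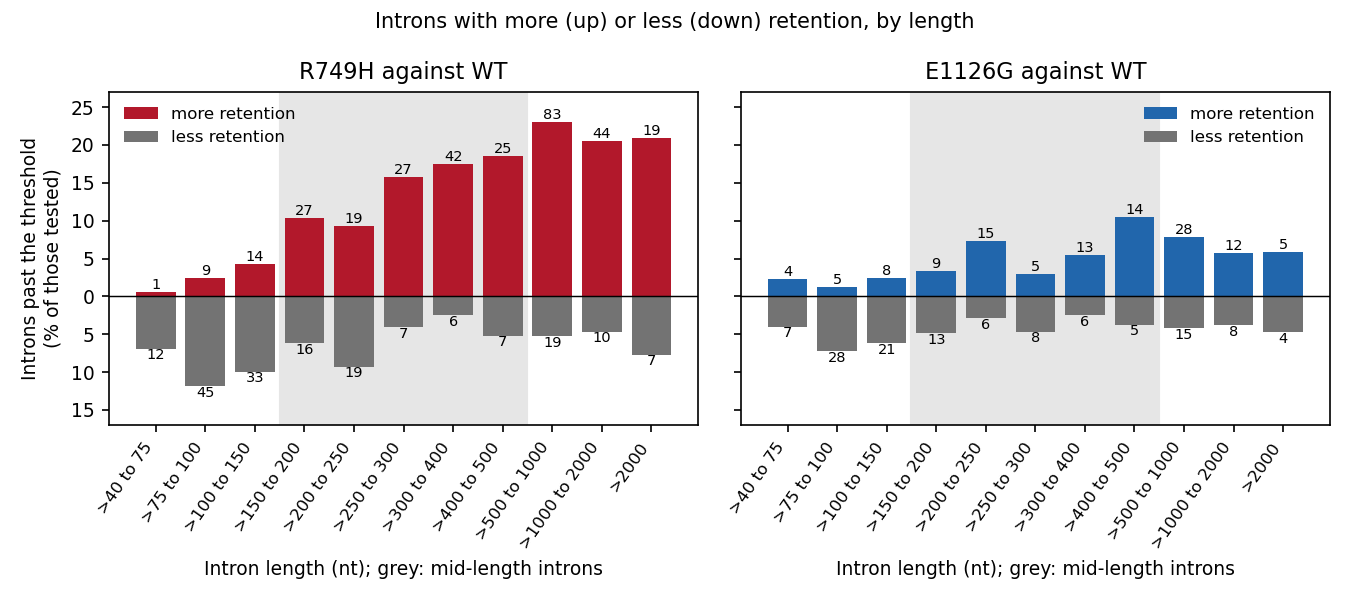
Share (%) of tested introns past an adjusted p of 0.05 with more (upward bars) or less (downward bars) retention by intron length, with the number of introns on each bar; the grey band marks the mid-length introns. In R749H the upward bars pass the downward ones at 150 to 200 nt (27 against 16) and stay above them except at 200 to 250 nt (19 against 19).

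At the bounds of the range few introns were listed. Within 5 nt above the lower bound, the R749H table held 27 introns with a median log2 change of -0.28, and within 5 nt below it 21 introns with a median of -0.36. At the upper bound 2 introns inside had a median of 0.27, and 8 outside one of 0.61.

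The starting level also went with the direction of change. For R749H, members under 10% in WT had 42 with more and 10 with less retention of 235 in the authors' deposited table, and a median log2 change of 0.36. Members from 20% to 40% had 38 and 13 of 188, and those from 80% to 100% had 6 and 10 of 274 with a median of 0.01. For E1126G the order was steeper in the medians, 0.41 under 10%, 0.13 from 20% to 40% and -0.21 from 80% to 100%. Its calls went from 23 more and 4 less of 236 in the lowest class to 3 more and 12 less of 273 in the highest. The WT ratio enters both the class and the change, so chance error in WT alone moves these values in opposite directions, and its part was not tested.

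Restricting the introns to WT retention of 20% to 80% kept the order of the length classes in R749H and left no lean in E1126G. In the R749H table the medians were then -0.36 for short introns, 0.13 for mid-length introns and 0.58 for long ones. The calls were 8 with more and 51 with less of 283, 67 and 25 of 392, and 57 and 15 of 238. In the E1126G table the members had 20 with more and 19 with less of 391, and a median of -0.02.

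Introns of different length in the same place could be compared directly. Introns on the same strand with gaps of at most 2000 nt were taken as 1 locus, and the log2 changes of each length class were averaged within it. In the loci of the authors' deposited R749H table that held both a member and an intron of 41 to 150 nt, the members had the higher change in 96 and the lower in 55, with a median difference of 0.40 and quartiles at -0.61 and 1.22. Against introns over 500 nt, members were higher in 35 and lower in 45 of 80 loci, with a median difference of -0.37. In E1126G the members were higher than the short introns in 84 and lower in 70 of 154 loci, a median difference of 0.19. Against long introns they were higher in 39 and lower in 42 of 81. The quartiles of the difference spanned 0 in both mutants, so a single locus could show either order.

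**Figure D4:**
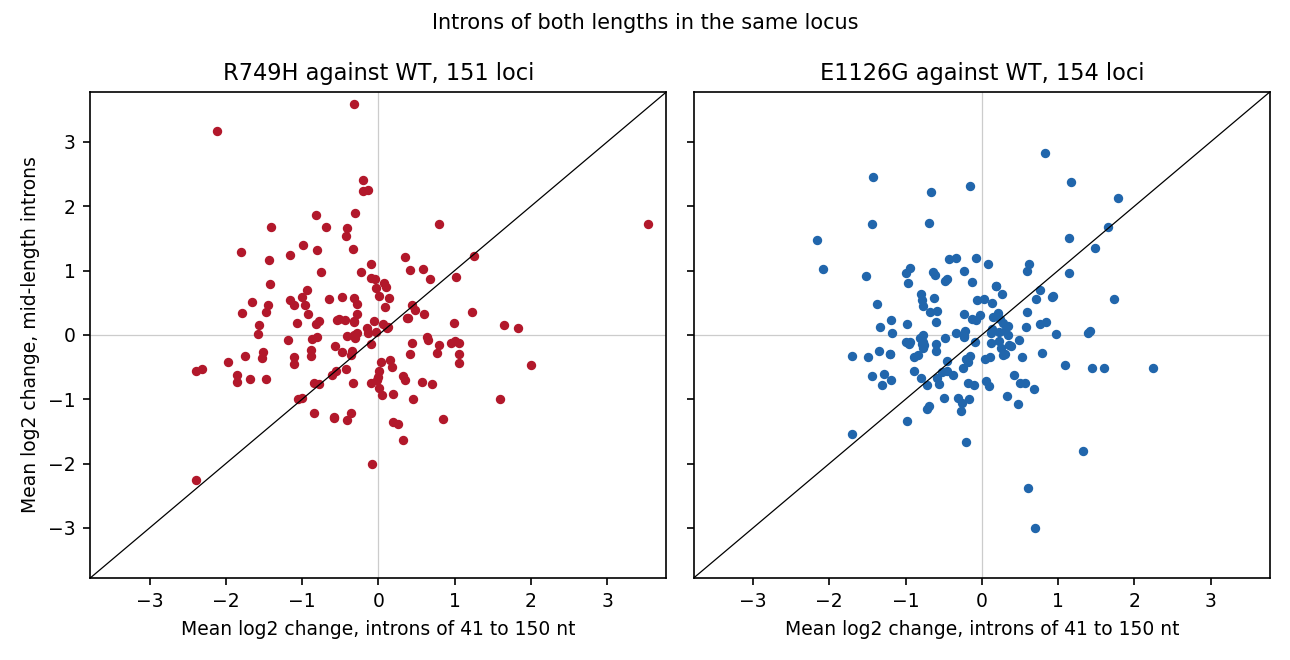
Mean log2 change of the mid-length introns (vertical axis) against that of the introns of 41 to 150 nt (horizontal axis) in the same locus, 1 point per locus, for R749H (left) and E1126G (right); the line marks equal change. In R749H 96 points lie above the line and 55 below it, and in E1126G 84 and 70.

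INTS11, the catalytic subunit of the Integrator complex that cleaves nascent RNA, had introns of both lengths side by side. Its 384-nt intron (chromosome 1, 1248505 to 1248888) had 25.6% retention in WT, 56.1% in R749H and 28.3% in E1126G in the authors' deposited tables. The R749H change was 1.89 on the log2 scale with a Benjamini-Hochberg adjusted p of 2.47e-07. The next 3 introns of the locus are short. The 86-nt intron fell from 40.2% to 24.5% in R749H (adjusted p 0.0176), while the 85-nt intron went from 24.5% to 19.5% and the 71-nt intron from 26.8% to 34.9% without passing the threshold. Farther upstream in the gene, a 466-nt intron went from 17.9% to 30.4% (adjusted p 0.0666) and a 313-nt intron that overlaps it from 92.9% to 85.3% (adjusted p 0.448) in R749H. The gene thus held introns of each length class with higher and with lower values than WT.

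The introns with the largest rises in R749H included a set of genes with diverse roles. Genes are not named in the intron tables and were assigned from neighbouring exon events, which gave 428 of the 1049 introns a gene (291 genes). The other 621 are given by position, in the GRCh37 build.

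RAD52, which anneals DNA strands in homologous recombination, had a 164-nt intron (chromosome 12, 1039053 to 1039216) that went from 34.8% in WT to 89.3% in R749H cells in the authors' deposited table. Its log2 change was 3.96 with a Benjamini-Hochberg adjusted p of 2.21e-11. E1126G had 48.7%, which did not pass (adjusted p 0.555).

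IL17RC, a receptor subunit for interleukin 17, had a 211-nt intron (chromosome 3, 9965705 to 9965915) that rose from 21.5% in WT to 75% in R749H and 68.0% in E1126G in the authors' deposited tables. The Benjamini-Hochberg adjusted p was 1.53e-07 and 0.00348. The spliced form was thus the major one in WT and the minor one in both mutants.

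VARS2, the mitochondrial valyl-tRNA synthetase, had 4 members. The 246-nt intron (chromosome 6, 30879545 to 30879790) rose from 20.8% to 58.1% in R749H and 52.5% in E1126G in the authors' deposited tables. The 181-nt intron that follows went from 7.5% to 23.4% in R749H (adjusted p 0.000201) and to 6.18% in E1126G (adjusted p 0.824). The next pair of members in the gene, the longer of 465 nt, was not called, at 57.9% and 95.6% in WT and 53.1% and 90.5% in R749H. The first pair thus rose together in R749H, while in E1126G only the 246-nt intron of the 4 passed the threshold.

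DDX11, a DNA helicase of the DEAD/DEAH box family, had a pair of introns on either side of an 88-nt exon that both rose in R749H. The 251-nt intron (chromosome 12, 31242086 to 31242336) went from 16.1% to 68.6% and the 395-nt intron from 47.6% to 88.5% in the authors' deposited table, with adjusted p of 5.39e-16 and 9.3e-11. E1126G had 24.3% and 58.1%, neither past the threshold. DDX11 has near-identical copies elsewhere in the genome, so these values are uncertain. Each of these introns is also overlapped by another listed intron. The exon between them was included at 98.1% in WT and 96.2% in R749H and was not called.

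L3MBTL2, a Polycomb-related chromatin protein, had a 480-nt intron (chromosome 22, 41623328 to 41623807) that rose from 9.93% to 63.5% in R749H and 24.1% in E1126G in the authors' deposited tables (adjusted p 8.55e-12 and 0.0468). This intron holds a 105-nt cassette exon. In the authors' deposited exon tables that exon was included at 6.85% in WT, 48.3% in R749H (adjusted p 2.39e-07) and 4.0% in E1126G (adjusted p 0.7). Reads of the included exon lie inside the intron, and their part in the intron's rise was not tested.

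The remaining large rises in R749H lay in introns without an assigned gene. The 234-nt intron at chromosome 1 (161183712 to 161183945) went from 9.83% to 55.1% in R749H and 36.8% in E1126G in the authors' deposited tables, with adjusted p of 5.01e-22 and 8.9e-11. A 330-nt intron at chromosome 2 (160075873 to 160076202) went from 34.2% to 77.1% in R749H (adjusted p 1.54e-05) and a 397-nt intron at chromosome 1 (3394591 to 3394987) from 36.6% to 84.3% (adjusted p 0.00227). Neither passed in E1126G, at 43.8% and 58.5%. A change of similar size had a larger adjusted p at chromosome 5 (141041357 to 141041609), where a 253-nt intron went from 41.2% to 93.3% (adjusted p 0.0315). E1126G was also higher there, at 83.3%, without passing the threshold (adjusted p 0.124). A 304-nt intron at chromosome 11 (72533589 to 72533892) went from 49% to 91.3% and a 450-nt intron at chromosome 2 (239102973 to 239103422) from 28.9% to 73.1% in R749H (adjusted p 0.00238 and 0.00272), with 61.3% and 36.5% in E1126G, not past the threshold. The 450-nt intron is overlapped by another listed intron.

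Falls in R749H were led by a 173-nt intron at chromosome 7 (35734238 to 35734410), at 69.7% in WT and 20.7% in R749H cells in the authors' deposited table (adjusted p 0.0188). E1126G was also lower there, at 32%, without passing the threshold (adjusted p 0.152). KCNC4, a voltage-gated potassium channel, had a 313-nt intron (chromosome 1, 110775220 to 110775532) that fell from 97.0% to 67.9% in R749H and 59.4% in E1126G. The Benjamini-Hochberg adjusted p was 0.00262 and 4e-05. A 403-nt intron at chromosome 1 (155253927 to 155254329) fell from 89.1% to 57.4% in R749H (adjusted p 0.000114) and a 273-nt intron at chromosome 2 (234198621 to 234198893) from 47.7% to 12% (adjusted p 0.0111), with 80% and 29% in E1126G, neither past the threshold. The other falls among the 10 largest without a gene were a 347-nt intron at chromosome 4 (2934486 to 2934832), at 55.9% in WT and 29.1% in R749H (adjusted p 0.00475), and a pair of introns at chromosome 2. That pair went from 65.3% to 35% at 220081188 to 220081373 and from 50.8% to 30.1% at 220075198 to 220075432 (adjusted p 0.0204 and 0.0169). E1126G stood at 43.1% for the chromosome 4 intron and at 58.1% and 38.2% for the pair, none past the threshold. A 340-nt intron at chromosome 11 (801625 to 801964) had the firmest support among the 10 largest falls in R749H. It went from 28.7% to 6.48% in R749H (adjusted p 7.74e-07) and 14.0% in E1126G (adjusted p 0.0424) in the authors' deposited tables.

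METTL25B, a methyltransferase-like gene, had a 165-nt intron that fell from 53.4% to 30.2% in R749H and 26.4% in E1126G in the authors' deposited tables (adjusted p 0.000262 and 0.000118). The 168-nt intron of GSTK1, a glutathione transferase, fell from 35.7% to 18.4% and 18.9% (adjusted p 0.000127 and 0.00118). An unnamed 230-nt intron at chromosome 20 (62703295 to 62703524) fell from 30% to 14.5% and 12.6% (adjusted p 0.0327 and 0.00179). These introns had less retention with the slow and with the fast polymerase alike, each measured against the same WT libraries.

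Introns with more retention in both mutants included, besides IL17RC, VARS2 and the chromosome 1 intron above, an unnamed 258-nt intron at chromosome 14 (24735724 to 24735981). Its retention was 27.7% in WT, 59.3% in R749H and 55.8% in E1126G in the authors' deposited tables (adjusted p 0.000363 and 0.00109). A 486-nt intron in the pseudoautosomal region of the X chromosome (302132 to 302617) had 28%, 69.1% and 56.1% (adjusted p 1.69e-08 and 0.00204).

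The largest rises in E1126G were mostly in other introns. GPS1, a subunit of the COP9 signalosome, had a 448-nt intron (chromosome 17, 80011926 to 80012373) at 5.3% in WT, 45.9% in E1126G and 16.7% in R749H in the authors' deposited tables. The Benjamini-Hochberg adjusted p was 4.06e-08 for E1126G and 0.0528 for R749H. Another listed intron overlaps this GPS1 intron. ZMYM5, a zinc finger protein, had a 240-nt intron at 9.09% in WT, 38.9% in E1126G (adjusted p 0.00922) and 24.2% in R749H (adjusted p 0.119). Both introns were thus higher than WT in each mutant but passed the threshold in 1 of them. A 336-nt intron at chromosome 7 (131193788 to 131194123) without a gene went from 16.3% to 45.7% in E1126G (adjusted p 0.0327) and to 32.1% in R749H (adjusted p 0.0959).

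ARRDC1, an arrestin-domain protein that recruits ubiquitin ligases, had several overlapping forms of an intron in a locus of 5 members, not all of them assigned to the gene. The 453-nt form rose from 44.1% to 73.8% and the 406-nt form from 77.1% to 94.8% in E1126G in the authors' deposited table (adjusted p 0.000118 and 0.00544). R749H had 56.2% and 83.2%, and neither passed. The unnamed 262-nt intron of the same locus (chromosome 9, 140508222 to 140508483) went from 17.2% to 44.9% in E1126G (adjusted p 6.71e-05) and to 14.6% in R749H (adjusted p 0.793).

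TSPAN31, a tetraspanin, gave the largest change of any member. Its 332-nt intron (chromosome 12, 58140040 to 58140371) went from 12.9% in WT to 94.4% in E1126G, 6.84 on the log2 scale (adjusted p 1.14e-65), and to 17.2% in R749H (adjusted p 0.58), in the authors' deposited tables. The value is uncertain because CDK4 lies close by on the opposite strand and the library kit does not mark strand. Another listed intron overlaps the TSPAN31 intron. It also holds a 99-nt cassette exon, at 1.5% inclusion in WT and 11.8% in E1126G (adjusted p 0.0814). The part of either in the change was not tested.

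Falls in E1126G included genes that regulate splicing. TRA2A, a splicing activator that binds its own transcript, had a 280-nt intron (chromosome 7, 23561460 to 23561739) that fell from 86.5% in WT to 43.2% in E1126G in the authors' deposited table (adjusted p 1.75e-09). R749H had 78.1% (adjusted p 0.22). Another listed intron overlaps this one, and as at HAX1 a high value there goes with little use of that pair of sites. The 312-nt exon that the intron borders went the other way in the authors' deposited exon tables, from 37.9% inclusion in WT to 83.3% in E1126G (adjusted p 3.03e-11) and 58.8% in R749H (adjusted p 0.0218). Reads that join this exon across the intron may enter both values, so these may not be separate measurements.

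CLK4, a kinase of SR splicing factors, had the same arrangement. Its 395-nt intron (chromosome 5, 178043950 to 178044344) fell from 59.5% to 23.9% in E1126G (adjusted p 0.00514) and stood at 59.8% in R749H (adjusted p 0.993) in the authors' deposited tables. Another listed intron overlaps this one too. The adjoining 91-nt exon rose from 68.0% to 90.4% in E1126G and 92.3% in R749H, with adjusted p of 0.000189 and 2.44e-05. In R749H the exon therefore changed without a called change of the intron. In KCNC4 the 377-nt exon beside the intron rose from 48.0% to 94.7% in R749H (adjusted p 0.0115) and was at 81.2% in E1126G (adjusted p 0.12). The introns of CLK4 and KCNC4 also end at these exons, so the limit given for TRA2A applies.

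OGG1, a DNA glycosylase that removes oxidised guanine, had a 227-nt intron that fell from 89% to 50% in E1126G (adjusted p 0.0184) in the authors' deposited table, with 66.7% in R749H (adjusted p 0.609). NAPRT, an enzyme of NAD synthesis, had a 269-nt intron that fell from 46.0% to 19.6% (adjusted p 0.00123), with 31% in R749H (adjusted p 0.0865). The falls without a gene were a 154-nt intron at chromosome 15 (91479213 to 91479366), from 63.3% to 14.3% (adjusted p 0.0482), a 167-nt intron at chromosome 6 (112575494 to 112575660), from 51.7% to 25.1%, and a 458-nt intron at chromosome 14 (24843074 to 24843531), from 47.1% to 20.3% (adjusted p 0.00448 and 0.0254). In R749H these unnamed introns were also lower than WT, at 33.3%, 30.2% and 33.8% in the same order. None of the 5 introns of this paragraph passed in R749H. Another listed intron overlaps the 154-nt one.

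**Figure D5:**
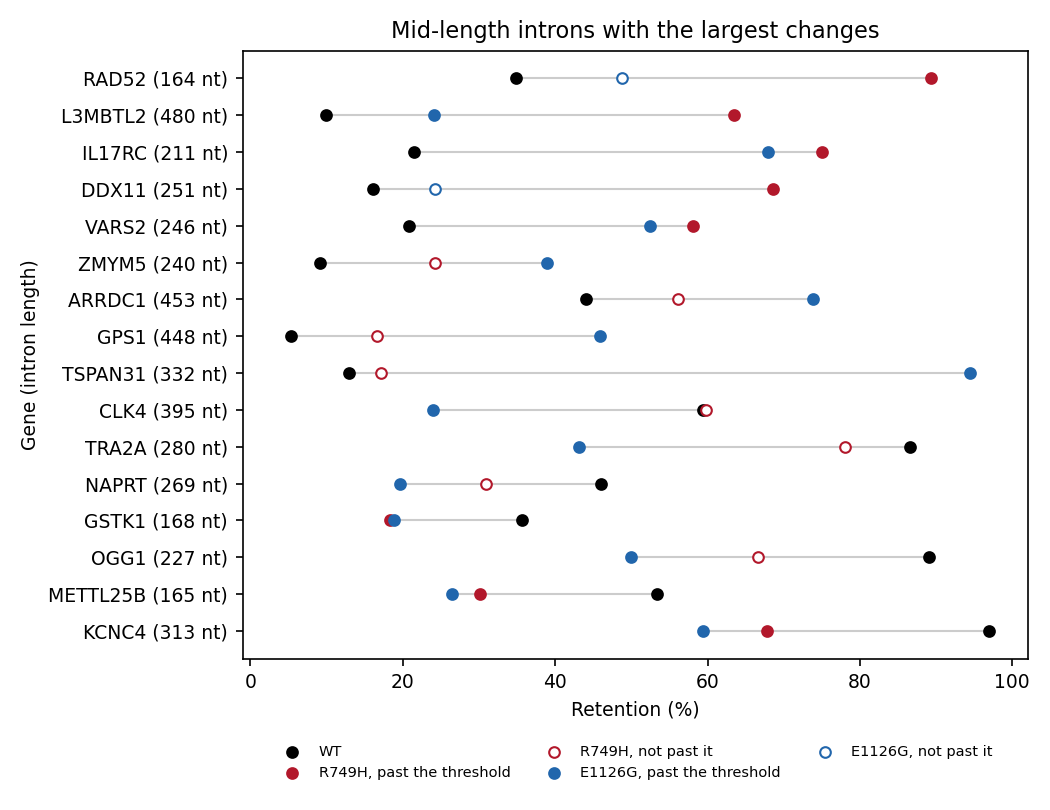
Retention (%) in WT (black), R749H (red) and E1126G (blue) of introns with an assigned gene that are named in the text among the largest changes, with the length of each intron in nt; filled points passed an adjusted p of 0.05 against WT and open points did not. IL17RC and VARS2 lie above WT in both mutants, METTL25B, GSTK1 and KCNC4 below it, and TSPAN31 stands at 94.4% in E1126G and 17.2% in R749H.

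By function, the splicing regulators among the members were few. Over all introns tested, 11.9% were called with more and 6.99% with less retention in R749H, and 4.51% and 4.67% in E1126G. Most lists here and below hold few introns, and none was tested against these shares. Of 11 introns in genes of hnRNPs and similar regulators, 2 had more retention in R749H and none had less, and 1 rose and 1 fell in E1126G. TIAL1, an RNA-binding protein that promotes the use of weak splice sites, had a 329-nt intron (chromosome 10, 121336263 to 121336591). Its retention was 47.5% in WT, 84.2% in R749H and 66.5% in E1126G in the authors' deposited tables (adjusted p 4.14e-17 and 0.00285). A 59-nt cassette exon inside it had 9.82%, 19.6% and 8.98% inclusion (adjusted p 0.0334 and 0.922), and its part in the rise was not tested. PCBP4, a poly(C)-binding protein, had a 223-nt intron that went from 3.85% to 23.5% in R749H (adjusted p 0.00513). The PCBP4 intron is overlapped by another listed intron. RBM3, a cold-induced RNA-binding protein, had a 230-nt intron that fell from 88.0% to 77.4% in E1126G (adjusted p 0.0247) and was at 92.3% in R749H (adjusted p 0.218). Another listed intron overlaps it, as at TRA2A. The exons that border it went different ways. A 269-nt exon rose from 4.93% to 18.3% in R749H and 24.8% in E1126G (adjusted p 2.45e-07 and 4.85e-13). A 523-nt exon ending at the same place fell from 99.4% to 95.4% in E1126G (adjusted p 2.27e-06) and had 99.2% in R749H. Reads joining these exons across the intron may likewise enter both values.

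No intron passed the threshold in the core spliceosome list, with 6 introns of 5 genes tested on the deposited p-values. Over all introns 18.9% were called in R749H and 9.18% in E1126G. At an unadjusted p under 0.05 there were 0 in R749H and 1 in E1126G. The list of SR proteins and cofactors held 3 introns and that of their kinases 3, with TRA2A and CLK4 as the called ones. The list for 3′ end formation, export and RNA surveillance held no member.

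Translation genes held the most introns of any list, 28 in 13 genes, with 4 called more and 8 called less retained in R749H in the authors' deposited table and a median log2 change of -0.21. Over all introns 11.9% were called more and 6.99% less. Of the 8 falls, 5 lay in RPL13 and RPS2, and 2 of the 4 rises were the VARS2 introns, which the mitochondrial list also holds. In E1126G 1 was called more and 0 less, with 4 at an unadjusted p under 0.05. Of the falls in ribosomal protein genes, 4 took place at very low levels. RPL13, a protein of the large subunit, had a 163-nt intron that fell from 1.59% to 0.762% in R749H (adjusted p 0.000219) and a 209-nt intron from 1.27% to 0.735% (adjusted p 0.00998). In RPS2, a protein of the small subunit, a 226-nt intron fell from 0.872% to 0.51% and a 239-nt intron from 0.827% to 0.484% (adjusted p 0.0187 and 0.0238). A 492-nt intron of RPS2 that spans the 239-nt one fell from 26% to 19.1% (adjusted p 0.0455). E1126G stood at 0.84% and 0.926% for the 226-nt and 239-nt introns and at 29.2% for the 492-nt intron, and none passed.

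The list also held tRNA synthetases. QARS1, the glutaminyl-tRNA synthetase, had a 221-nt intron that fell from 14.8% to 3.76% in R749H (adjusted p 6.18e-09) in the authors' deposited table, with 9.93% in E1126G. A 366-nt intron of CARS1, the cysteinyl-tRNA synthetase, fell from 94.2% to 76.9% (adjusted p 0.0378), and another listed intron overlaps it. MARS1, the methionyl-tRNA synthetase, had a 253-nt intron that rose from 34.4% to 45.8% and a 199-nt intron that fell from 97.3% to 94.7% in R749H (adjusted p 0.03 and 0.0368). GNL3, a nucleolar GTPase, had a 240-nt intron that rose from 18.5% to 30.4% (adjusted p 0.00736). RPS6KB1, also caught by the name rule of this list, is a kinase and not a part of the ribosome, and its intron was not called.

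Among 15 introns of the ubiquitin and proteasome list, 3 had more retention in R749H and 0 had less, with 4 at an unadjusted p under 0.05. The shares over all introns in R749H were 11.9% more and 6.99% less. TRIM41, a ubiquitin ligase, had a 200-nt intron that went from 54.8% to 77.7% in the authors' deposited table (adjusted p 0.0108). PSME2, a subunit of the proteasome activator, had a 244-nt intron that went from 7.33% to 18.4% (adjusted p 2.85e-05) and stood at 7.52% in E1126G. PSMD2, a subunit of the proteasome regulatory particle, had a 176-nt intron that went from 1.11% to 5.31% (adjusted p 0.00463). In E1126G 1 intron of the list was called, the 247-nt intron of PSMD4, a ubiquitin receptor of the proteasome, which rose from 2.98% to 6.11% (adjusted p 0.0147).

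Of 9 introns in mitochondrial genes, 3 rose in R749H. Besides both VARS2 introns these included the 452-nt intron of UQCRQ, a subunit of respiratory complex III, which went from 4.67% to 11% (adjusted p 2.67e-06) in the authors' deposited table and stood at 4.34% in E1126G. Of 12 introns tested in replication and repair genes, 2 rose and 1 fell in R749H. For both lists the shares over all introns were 11.9% more and 6.99% less in R749H. RAD52 led the repair list, with a 454-nt intron of CENPV, a centromere protein, at 95.4% in WT and 98.8% in R749H (adjusted p 0.0213). A 249-nt intron of APEX1, an endonuclease of base excision repair, fell from 93.9% to 89.1% (adjusted p 0.025), and another listed intron overlaps it.

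Chromatin regulators had 16 introns tested for R749H and none called on the deposited p-values, with 0 at an unadjusted p under 0.05. For this and the other lists of this paragraph, the shares called over all introns were 18.9% in R749H and 9.18% in E1126G. L3MBTL2, described above and called in R749H, is a chromatin protein that the list's name rule did not hold. In E1126G 1 of 17 passed, the 275-nt intron of SMARCC2, a subunit of the SWI/SNF remodeller, which rose from 13.9% to 28.9% (adjusted p 0.0377). The 12 introns of cytoskeleton and motor genes had none called in either mutant, with 1 in R749H and 3 in E1126G at an unadjusted p under 0.05. The helicase list had 2 of 5 introns called in R749H, both in DDX11, and none in E1126G, with 0 at an unadjusted p under 0.05. Each of the solute carrier, small GTPase and zinc finger lists had 1 intron called. The 321-nt intron of SLC37A4, the glucose 6-phosphate transporter, rose from 28.4% to 55.7% in R749H (adjusted p 0.000184) in the authors' deposited table. The 206-nt intron of RAN, the GTPase of nuclear transport, fell from 4.13% to 2.18% (adjusted p 0.00474), and the 363-nt intron of ZNF711, a zinc finger protein, fell from 78.9% to 67.5% in E1126G (adjusted p 0.0195).

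The members lay in 806 loci, of which 638 held 1 member, 152 held 2 or 3 and 16 held 4 or more, up to 8. The crowded loci show how far neighbours moved together.

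GAS5, a non-coding gene whose introns carry small nucleolar RNAs, had the most members, and nearly every value was lower in the mutants: of the 8 members of its locus, 7 were lower in R749H and 8 in E1126G, of which 4 passed the threshold in each mutant. The 179-nt intron (chromosome 1, 173833443 to 173833621) fell from 11.5% to 6.79% in R749H and 7.03% in E1126G in the authors' deposited tables (adjusted p 0.00234 and 0.0253). The 168-nt intron (173833645 to 173833812) fell from 13.5% to 8.81% and 7.51% (adjusted p 0.0324 and 0.0132). The 282-nt intron (173835033 to 173835314) fell from 2.85% to 1.04% in E1126G (adjusted p 0.000178) and had 1.89% in R749H (adjusted p 0.132). The 193-nt intron was an exception, at 6.81% in WT and 8.36% in R749H, which did not pass (adjusted p 0.512). Reads of the small nucleolar RNAs and of the spliced introns could not be told apart from retained RNA here.

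AP1G2, a subunit of an adaptor of clathrin-coated vesicles, had the mid-length introns of its locus all at higher values in R749H, some past the threshold. Its 171-nt intron (chromosome 14, 24035102 to 24035272) rose from 80% to 91.7% in R749H and 89.1% in E1126G in the authors' deposited tables (adjusted p 0.000149 and 0.0271). The 326-nt intron rose from 48.4% to 62.9% in R749H (adjusted p 0.037), while the 221-nt intron went from 46.4% to 57.4% (adjusted p 0.0984) and the 189-nt intron from 64.1% to 68.6% (adjusted p 0.649). The short introns of the locus went both ways. The 114-nt intron rose from 53.5% to 67.5% and the 77-nt intron from 18.8% to 34.8% in R749H (adjusted p 0.0163 and 0.0187). The 81-nt intron was at 56.3% in WT, 51.9% in R749H (adjusted p 0.683) and 39.1% in E1126G (adjusted p 0.0197), and the 106-nt intron was between 97.3% and 97.5% in every genotype.

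GALT, which encodes an enzyme of galactose metabolism, lay in a locus whose introns moved apart. An unnamed 302-nt intron (chromosome 9, 34646784 to 34647085) rose from 16.0% to 52.9% in R749H (adjusted p 4.33e-06) and had 17.9% in E1126G in the authors' deposited tables. An unnamed 305-nt intron of the same locus (34648454 to 34648758) had 53.1% in WT, 50% in R749H and 27.2% in E1126G (adjusted p 0.847 and 0.0133). A 103-nt intron there fell from 52.3% to 28.8% in R749H (adjusted p 0.00304).

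Other crowded loci hardly moved. MYL6, a myosin light chain, had 3 members between 1.03% and 97.5% in WT, and none was called in either mutant. The 6 members of ING4, a reader of histone methylation, stood between 11.7% and 95.6% in WT and none was called. EIF4G2, a translation initiation factor, had introns at 1.14% to 2.23% in WT and at 2.04% to 4.41% in R749H, none past the threshold, and an unnamed 333-nt intron of its locus rose from 9.85% to 19.9% (adjusted p 5.26e-05).

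The members were also split by features other than length and level. Members that overlapped another listed intron had 30 with more and 16 with less retention of 293 in R749H, and those that did not had 110 and 39 of 719, in the authors' deposited table. Members bordering a tested cassette exon event had 32 and 24 of 310, and the others 108 and 31 of 702. Members holding a cassette exon had 5 and 3 of 30 and a median log2 change of 0.74. By length modulo 3, the members divisible by 3 had 40 and 14 of 347. Those leaving a remainder of 1 or 2 had 43 and 20 of 314 and 57 and 21 of 351. Whether retention keeps a reading frame in any of them was not checked. No test of these splits was made, since introns of a gene share reads and are not replicates of a condition.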

How the data were processed

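PolyA+ RNA-seq compared R749H or E1126G with WT. The files are the authors' own comparisons, with no value per library. Per the labels' protocols, reads were mapped with TopHat 1.4.1; per the submitters' processing notes, Bowtie 0.12.7 and edgeR 3.7.17 were also used, on GRCh37. In each deposited intron table the authors give the retained-to-spliced ratio in WT as a natural log, its log2 change in the mutant and an unadjusted p-value. The sources used here do not state which test gave it or whether it carries the spread between libraries. The tables coded C4 were read as R749H because that genotype's labels list them. A higher ratio was read as more retention because 45 gaps under 40 nt, too short to splice, had a median of 96.6% against 35.1% elsewhere.

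Retention was computed as 100 × ratio/(1 + ratio), length as end minus start, and positions printed 1-based. P-values were adjusted by Benjamini-Hochberg over all introns of a table (threshold 0.05); calls were tested on simulated data. Genes came from the deposited exon tables on the same strand: 316 members share an exon edge, 10 lie between flanking exons, 102 inside the span of a gene's events, and 3 matched several genes. Introns named are the 10 largest called rises and falls in percentage points per mutant, 5 per direction called in both, and up to 4 per gene list; others (INTS11's other introns, crowded loci, tRNA synthetases, RPL13, RPS2) were chosen after their values were seen. Some introns that this rule names are not reported here. Members and lists were chosen with earlier results of these data known. Python 3.11.15, pandas 2.3.3, numpy 2.4.6 and matplotlib 3.10.9 were used.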

Additional observations from a re-analysis of the deposited data

How the results depend on the processing

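No paired analysis was possible because the tables hold no value per library, and for the same reason no library could be left out. A threshold of 0.01 gave 119 changed mid-length introns in R749H (92 more, 27 less) and 53 in E1126G (35 more, 18 less). The Benjamini-Yekutieli adjustment gave 108 (86 more, 22 less) and 46 (31 more, 15 less). Requiring at least 10 percentage points left 29 with less retention in R749H and 25 in E1126G. A length of 200 to 450 nt left 34 and 23 with less retention, and members overlapping no other intron left 25 with less in E1126G; these settings hold fewer introns. The other 47 values stayed within 1.5 times those reported, including the medians, which ran from 0.15 to 0.20 in R749H and from 0.06 to 0.11 in E1126G. Leaving out members that hold a cassette exon, chosen after seeing the data, gave 187 changed in R749H and 91 in E1126G. More introns had more than less retention in both mutants under every setting run. Depth is unknown, so changes of introns at low levels have no counting interval.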
